A study of Mus musculus with 8 samples.

Results

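Transcripts of 7 genes of the Nodal pathway were followed in mouse embryonic stem cells (ESCs) during the first hours after serum medium was replaced by 2i. The genes were *Nodal*, *Lefty1*, *Lefty2*, *Tdgf1*, *Smad7*, *Skil*, and *Acvr2b*, each found by its symbol under 1 Ensembl identifier among the 37263 identifiers counted. They are a ligand, its coreceptor, a receptor, and SMAD2/3 targets, and they were selected on their levels in these libraries as well, with a late rise between 16 and 32 hr already in view. The ratio of 32 hr to 16 hr, and ratios to 16 or 32 hr in general, are therefore given as a description with no test. The late rise was not a property of all of them. *Lefty1* was 4.00-fold higher at 32 hr than at 16 hr in 2i and 6.58-fold higher with vitamin C, *Lefty2* 1.70-fold and 4.79-fold, and *Nodal* 1.10-fold and 1.46-fold, while the other 4 genes differed little or not in the same direction in both treatments.

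The cells were of E14, a feeder-independent ESC line of 129/Ola origin, and all of them had been grown with LIF and fetal calf serum beforehand. 2i is a serum-free medium with LIF, the MEK inhibitor PD0325901, and the GSK3 inhibitor CHIR99021. RNA was sequenced at 4, 16, 24, and 32 hr after the change of medium, in 2i alone or in 2i with 17 µM vitamin C (vitC). Each time in each medium gave 1 library, 8 in all, and no serum library or replicate culture was analysed here. All libraries came from a single wild-type line, so the values describe that line and these cultures.

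Nodal is a secreted ligand of the TGF-β family that is made by pluripotent cells of the epiblast and by ESCs. It binds type I and type II activin receptors together with the coreceptor Cripto, encoded by *Tdgf1*, and the receptors phosphorylate SMAD2 and SMAD3, which enter the nucleus with SMAD4. The pathway switches on its own ligand as well as its own inhibitors, and *Lefty1* and *Lefty2* are among its classical target genes in ESCs.

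*Lefty1* and *Lefty2* encode secreted antagonists that keep Nodal from its receptors, and they lie next to each other on chromosome 1 as near copies. Because the results turn on this pair, their sequences are shown from the GENCODE M21 annotation (genome build GRCm38, plus strand), while the reads had been counted on an earlier build. The coding sequences are 1107 bases each and differ at 90 positions, an identity of 91.9%. The window of 60 coding bases with the most differences is printed here, with the 18 bases that differ in capitals, at chr1:180935143-180935202 for *Lefty1* and chr1:180893217-180893276 for *Lefty2*.
Lefty1 window: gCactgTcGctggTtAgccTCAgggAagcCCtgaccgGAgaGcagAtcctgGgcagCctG
Lefty2 window: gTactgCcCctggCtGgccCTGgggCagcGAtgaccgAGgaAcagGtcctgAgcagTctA
A read of 50 bases from the window can be assigned to its gene, whereas a read from a stretch without differences cannot. Of the 1058 windows of 50 bases in the *Lefty1* coding sequence, 281 (26.6%) occur unchanged in *Lefty2*. Over the whole transcripts, 17.9% of the 50-base windows of *Lefty1* and 12% of those of *Lefty2* are found in another gene. *Tdgf1* shared 8.86% with the pseudogene *Tdgf1-ps1*, which was not among the counted identifiers, and the other 4 genes shared none. How reads with several possible origins were treated is not given in the sources used here, so the split between *Lefty1* and *Lefty2* is uncertain to that extent and their sum is given as well.

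The libraries held 12940716 to 18434932 counts in 2i and 4753528 to 13157570 with vitC, and 3 counts, the smallest level read as detection, were 0.158 to 0.644 CPM (counts scaled to a common library size). All 7 genes lay above this floor in all 8 libraries. Lane 8 of the sequencer carried the 4 and 24 hr libraries and lane 7 those of 16 and 32 hr. The comparisons of 24 hr with 4 hr and of 32 hr with 16 hr thus stay within a lane, while lane and time cannot be told apart in a comparison of 4 or 24 hr with 16 or 32 hr. *Lars2* and features that vary with it took 0.0277%, 0.206%, 5.92%, and 0.564% of the counts in 2i at 4, 16, 24, and 32 hr, and 0.0113%, 7.11%, 6.37%, and 4.21% with vitC. Of 8 pluripotent cell markers 8 were above 1 CPM in every library, with a summed level between 1867 and 2387 CPM. The sum hides opposite moves of single markers. From 4 to 24 hr *Tfcp2l1*, *Sox2*, and *Esrrb* rose and *Pou5f1* fell in the edgeR test described below, and the other 4 did not pass. Of all genes 11.5% rose and 8.98% fell in it.

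*Nodal* (ENSMUSG00000037171), the ligand, stood at its highest level 4 hr after the medium change, at 162.8 CPM in 2i and 176.3 CPM with vitC. CPM here were normalized between libraries by TMM, and the intervals given in brackets are exact and cover counting error only. Its later levels, at 16, 24, and 32 hr, were 94.04, 112.9, and 103.3 CPM in 2i and 56.13, 57.55, and 81.99 CPM with vitC. Both 4 hr libraries were thus above all 6 later libraries, and the 3 later vitC libraries were below the 3 later 2i libraries. At 32 hr *Nodal* was 1.10-fold its level at 16 hr in 2i, a log2 ratio of 0.14 (0.033 to 0.24), and 1.46-fold with vitC, a log2 ratio of 0.55 (0.38 to 0.72). The late difference was small beside the earlier one, since at 32 hr the level was still 0.635-fold that of 4 hr in 2i and 0.466-fold with vitC.

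*Tdgf1* (ENSMUSG00000032494), the gene for the coreceptor Cripto, followed another course in each treatment. In 2i it stood at 141.3 CPM in the 4 hr library and at 272.1, 232.4, and 248.1 CPM in the later ones. With vitC it was at 207.4, 202.2, 178.2, and 184.3 CPM at the same times. The 4 hr library was the low one in 2i, whereas with vitC the 4 hr library was the highest by a small margin. Between 16 and 32 hr the log2 ratio was -0.13 in both treatments, so *Tdgf1* was not among the genes that were higher late.

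*Acvr2b* (ENSMUSG00000061393), which encodes a type II activin receptor, was counted at a low level throughout and stayed between 8.215 and 12 CPM. Its levels in 2i were 8.215, 8.999, 12, and 9.809 CPM at 4, 16, 24, and 32 hr, and with vitC 9.563, 11.4, 10.74, and 11.68 CPM. The ratio of 32 hr to 16 hr was 0.12 (-0.21 to 0.46) in 2i and 0.034 (-0.37 to 0.45) with vitC on the log2 scale, and both intervals include 0. A change of *Acvr2b* over this interval was not detectable at this depth.

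**Figure D1:**
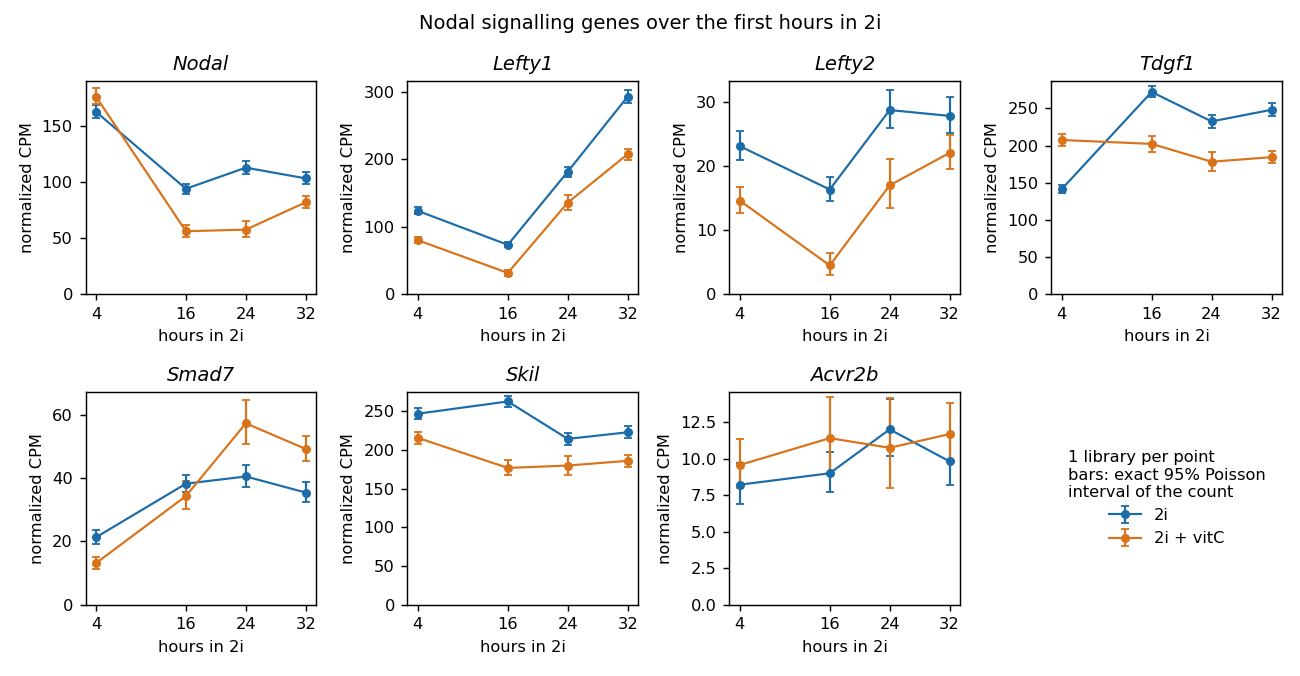
Normalized CPM (vertical axis, linear and starting at 0) against hours in 2i for each of the 7 genes, with 1 library per point, 2i in blue, 2i with vitC in orange, and bars for the exact 95% Poisson interval of the count. *Lefty1* and *Lefty2* dip at 16 hr and stand higher at 24 and 32 hr, *Nodal* is highest at 4 hr, and *Acvr2b* stays between 8.215 and 12 CPM.

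*Lefty1* (ENSMUSG00000038793) had the widest range of the 7 genes. Its levels at 4, 16, 24, and 32 hr were 123.6, 73.2, 181.9, and 293.5 CPM in 2i. With vitC they were 80.01, 31.46, 135.9, and 207.9 CPM. In both treatments 16 hr was the lowest library and 32 hr the highest, and 24 hr lay between 4 hr and 32 hr. From 16 to 32 hr the level was 4.00-fold higher in 2i, a log2 ratio of 2.00 (1.915 to 2.09), and 6.58-fold higher with vitC, a log2 ratio of 2.72 (2.525 to 2.93). Since 16 hr was the low point, the ratio to 4 hr was smaller, at 2.37-fold in 2i and 2.60-fold with vitC, with the lane differing between those times.

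*Lefty2* (ENSMUSG00000066652) ran about the same course at a lower level. In 2i its levels were 23.07, 16.31, 28.7, and 27.79 CPM at 4, 16, 24, and 32 hr, and with vitC 14.57, 4.473, 16.96, and 22.02 CPM. Again 16 hr was the lowest library of each treatment. Its level at 32 hr was 1.70-fold that at 16 hr in 2i (log2 ratio 0.76, 0.55 to 0.99) and 4.79-fold with vitC (2.26, 1.76 to 2.89). Between 24 and 32 hr it differed by -0.046 (-0.26 to 0.17) in 2i, whereas *Lefty1* differed by 0.69 (0.62 to 0.76), with the lane differing between these times too. *Lefty1* was 7.96, 6.66, 9.41, and 15.7 times as abundant as *Lefty2* per kilobase of transcript in 2i, and 8.16, 10.4, 11.9, and 14 times with vitC. The counts of both genes together gave 146.7, 89.52, 210.6, and 321.3 CPM in 2i and 94.58, 35.93, 152.9, and 230 CPM with vitC. Their log2 ratio of 32 hr to 16 hr was 1.84 and 2.68, so the dip and the late difference of the pair as a whole do not depend on how reads were split between the copies. Most of these counts were assigned to *Lefty1*, in 2i 1391 of 1701 at 16 hr and 3950 of 4324 at 32 hr. The sum therefore cannot show the same for *Lefty2* alone.

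*Smad7* and *Skil* act inside the cell as inhibitors of the pathway, *Smad7* at the receptors and *Skil*, which encodes SnoN, on SMAD complexes in the nucleus. *Smad7* (ENSMUSG00000025880) was at 21.32, 38.26, 40.54, and 35.45 CPM in 2i and at 13.15, 34.34, 57.33, and 49.21 CPM with vitC. The 4 hr library was the lowest in both treatments, and the later libraries lay close together in 2i. From 16 to 32 hr the log2 ratio of *Smad7* was -0.11 (-0.28 to 0.058) in 2i and 0.52 (0.30 to 0.74) with vitC. *Skil* (ENSMUSG00000027660) was at 246.6, 262.4, 214.1, and 222.6 CPM in 2i and at 215.4, 176.6, 179.7, and 185.8 CPM with vitC. Its highest library was the 16 hr library in 2i and the 4 hr library with vitC, and its late log2 ratio was -0.24 (-0.30 to -0.17) in 2i and 0.073 (-0.028 to 0.17) with vitC.

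In all, 4 of the 7 genes (*Nodal*, *Lefty1*, *Lefty2*, and *Acvr2b*) were higher at 32 hr than at 16 hr in both treatments, as were 30.2% of all 14931 genes tested. For 3 of them the counting intervals lay above 0 in both treatments, as for 10.6% of all genes. In a model of all 8 libraries 0.335% of all genes rose between these times and 0.248% fell. These shares are given as background only, since this contrast was in view when the genes were picked.

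**Figure D2:**
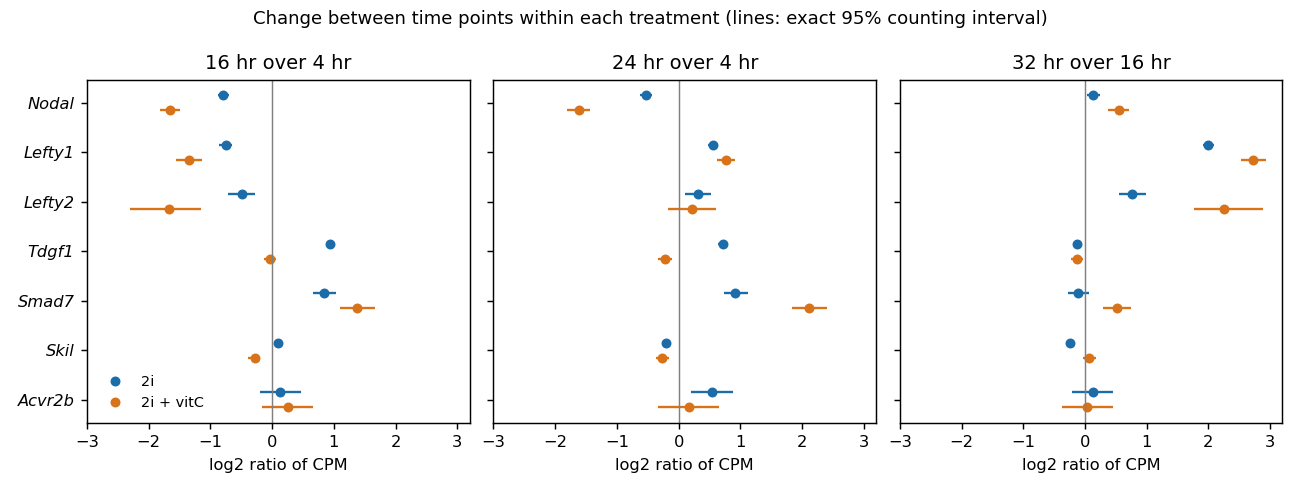
Log2 ratio of CPM (horizontal axis) for each gene (vertical axis) between 16 and 4 hr, 24 and 4 hr, and 32 and 16 hr, in 2i (blue) and in 2i with vitC (orange), with lines for the exact 95% counting interval. *Lefty1* and *Lefty2* lie left of 0 at 16 hr over 4 hr and right of 0 at 32 hr over 16 hr, *Nodal* lies left of 0 in both panels against 4 hr, and *Smad7* lies right of 0 in them.

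Set per kilobase of transcript, so that genes can be ranked within a library, the order changed with time. At 4 hr in 2i *Nodal* led, with 77.73 CPM per kilobase, followed by *Lefty1* with 70.33 and *Tdgf1* with 53.91. At 16 hr *Tdgf1* led with 103.8, and *Nodal* and *Lefty1*, with 44.89 and 41.64, did not differ beyond their counting intervals. At 32 hr *Lefty1* led with 167 CPM per kilobase in 2i and with 118.3 with vitC, followed in both treatments by *Tdgf1*, *Nodal*, and *Skil*. With vitC, neighbours that did not differ beyond these intervals were *Nodal* and *Tdgf1* as well as *Smad7* and *Acvr2b* at 4 hr, *Skil* and *Lefty1* as well as *Acvr2b* and *Lefty2* at 16 hr, and *Lefty1* and *Tdgf1* at 24 hr. The spread between cultures is unknown, so the order holds for these libraries.

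The comparison of 24 hr with 4 hr stayed within the lane and asked which of the genes differed on average over both treatments. It contrasts other times than the late comparison, but the libraries of the late comparison entered the same fit. The 7 genes were selected on their levels in these libraries as well, so the p-values are not independent of that choice. *Smad7* and *Lefty1* rose and *Nodal* fell, while the coreceptor, the receptor, *Lefty2*, and *Skil* did not pass the test. Each change was fitted with edgeR's quasi-likelihood test in an additive model of time and treatment on all 8 libraries, in which 3 residual degrees of freedom measure how far both treatments part from one another over time, not how cultures vary. Of the 7 genes 2 rose and 1 fell (adjusted p under 0.05, Benjamini-Hochberg over all genes tested), where 11.5% of all genes rose and 8.98% fell.

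*Smad7* was 1.89-fold its 4 hr level at 24 hr in 2i and 4.32-fold with vitC, which in the model was a log2 fold change of 1.475 ± 0.26 (standard error, edgeR adjusted p = 0.0024). *Lefty1* was 1.47-fold and 1.70-fold its 4 hr level, or 0.66 ± 0.18 on the log2 scale of the model (edgeR adjusted p = 0.021). *Nodal* was at 0.694-fold and 0.327-fold its 4 hr level, or -1.06 ± 0.21 in the model (edgeR adjusted p = 0.0052). The ligand was thus lower and its antagonist and the receptor-level inhibitor were higher in the same pairs of libraries. For *Lefty2* the model gave 0.26 (edgeR adjusted p = 0.55), for *Acvr2b* 0.38 (0.30), and for *Skil* -0.23 (0.26), with the same sign in both treatments. *Tdgf1* had 0.21 (adjusted p = 0.51, edgeR), with a log2 ratio of 0.72 in 2i and -0.22 with vitC. Without a treatment term in the model *Nodal* (adjusted p = 0.057, edgeR) and *Lefty1* (0.23) no longer passed. In these pairs the *Lars2* features moved from 0.0277% to 5.92% and from 0.0113% to 6.37% of the counts, and 6 fibroblast markers from 115.4 to 368 CPM and from 97.87 to 674.9 CPM in sum, none of them at 0 in any library. Of the 6, 3 rose in edgeR's test (*Postn*, *Col1a1*, and *Col1a2*), while *Thy1*, *Twist2*, and *Col3a1* did not pass and were lower at 24 hr in 2i. The part of the *Lars2* features or the fibroblast markers in the changes of *Smad7*, *Lefty1*, and *Nodal* was not tested, and in bulk RNA fewer cells of a type and less RNA per cell cannot be told apart. In sum the fibroblast markers went from 261.9 CPM at 16 hr to 286.8 CPM at 32 hr in 2i. With vitC they went from 415 to 419.1 CPM. Single markers went both ways, such as *Postn* at 1.82-fold and 7.8-fold and *Thy1* at 0.345-fold and 0.217-fold, and none of the 6 passed the test. Over the same hours the *Lars2* features moved from 0.206% to 0.564% of the counts in 2i and from 7.11% to 4.21% with vitC. The part of these markers or features in the late differences of *Lefty1* and *Lefty2* was not tested.

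The question for vitC was whether these genes stood at another level with it at matched times. *Lefty1* and *Lefty2* were lower with vitC at 4 of 4 time points, as was *Skil*, and *Nodal* was lower at 3 of 4, yet none of the 7 genes passed the test over all genes. With time as a block in edgeR's quasi-likelihood model, 0 of the 7 were called, where 0.107% of all genes were higher and 0.0603% lower, and 4 of the 7 had an unadjusted p under 0.05, as did 13.8% of all genes. DESeq2 called 2 of them, and its count over all genes, given below, was also larger than that of edgeR.

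*Lefty1* came closest, at -0.68 ± 0.13 on the log2 scale (standard error, edgeR adjusted p = 0.051). The log2 ratios of vitC to 2i were -0.63, -1.21, -0.42, and -0.50 in the order of time, so that 16 hr stood apart. *Lefty2* was at -0.83 ± 0.21 (edgeR adjusted p = 0.095), with ratios of -0.66, -1.83, -0.75, and -0.33. Here too the 16 hr pair was the farthest from 0, where the vitC library held 4.473 CPM of *Lefty2*. For *Nodal* the difference was -0.47 ± 0.15 (edgeR adjusted p = 0.18). Its ratio was 0.11 (0.035 to 0.19) at 4 hr and -0.74, -0.97, and -0.33 at 16, 24, and 32 hr, so that the lower level with vitC appeared after the first time point. *Skil* was at -0.32 ± 0.10 (edgeR adjusted p = 0.17), with ratios between -0.57 and -0.20.

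The other genes had no common sign over the time points. *Tdgf1* was higher with vitC at 4 hr, with a log2 ratio of 0.55 (0.47 to 0.63), and lower at 16, 24, and 32 hr, with ratios of -0.43, -0.38, and -0.43. *Smad7* went the other way, with -0.69, -0.16, 0.50, and 0.47 in the order of time. In the model *Tdgf1* was at -0.17 (edgeR adjusted p = 0.66), *Smad7* 0.046 (0.94), and *Acvr2b* 0.17 (0.71). The intervals of *Acvr2b* included 0 at all 4 time points. Over the alternative settings the adjusted p of *Lefty1* ranged from 5.7e-07 to 0.999, and it passed in 5 of 14 of them. The *Lars2* features differed most between the treatments at 16 hr (0.206% and 7.11%), the pair in which *Lefty1* and *Lefty2* differed most. In the 24 hr pair they took 5.92% and 6.37%. Each pair sets 1 library against 1 other, and the part of these features in the vitC differences was not tested.

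**Figure D3:**
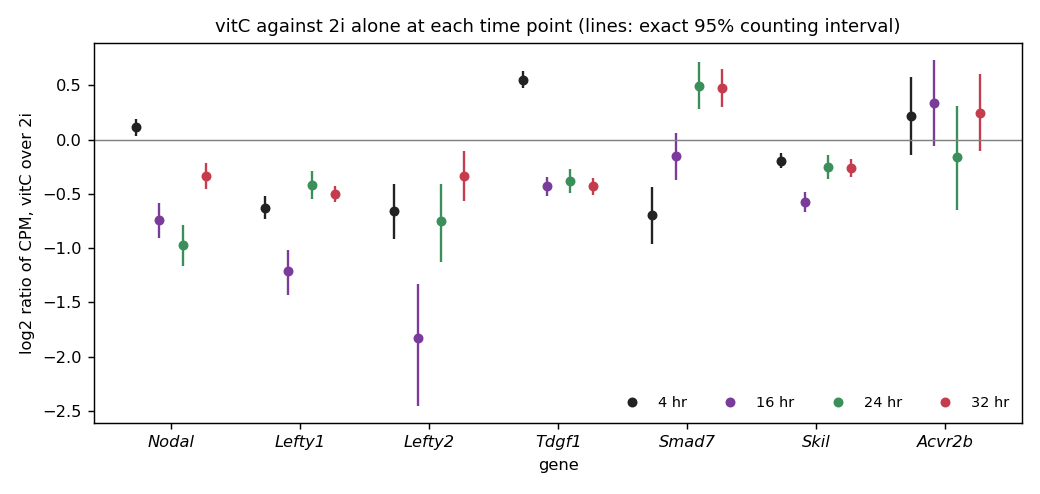
Log2 ratio of CPM with vitC over 2i alone (vertical axis) for each of the 7 genes (horizontal axis) at 4, 16, 24, and 32 hr (colours), with lines for the exact 95% counting interval. *Lefty1*, *Lefty2*, and *Skil* lie below 0 at all 4 time points, and *Tdgf1* and *Smad7* change sides between 4 hr and 24 hr.

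The 7 genes did not share a single course over the 8 libraries. Pearson's r between *Lefty1* and *Lefty2*, on log2 CPM, was 0.911, although shared reads could add to it, whereas r was -0.80 between *Nodal* and *Smad7* and 0.0091 between *Lefty1* and *Tdgf1*. The libraries share medium, lane, and time, so these values are descriptions. With the mean of the 7 standardized profiles r was 0.87 for *Lefty2*, 0.818 for *Lefty1*, and below 0.50 for the others (0.0832 for *Acvr2b*). Among 10451 protein-coding genes with a mean of at least 5 CPM, *Pik3ip1* (r = 0.967), *Stoml1* (0.965), *Dera* (0.955), *Sugp2* (0.954), and *Npr1* (0.953) were most like this mean profile over the 8 libraries. Only *Dera* was also among the 5 most like by Spearman's rank correlation, so the names depend on the measure.

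The rest of the pathway was read from lists of other ligands, receptors, antagonists, convertases, SMAD partners, inhibitors, and target genes, in which 53 of 54 genes were found in the files and 46 passed the filter on low counts. From 4 to 24 hr 8 of the 46 rose and 5 fell, where 11.5% of all genes rose and 8.98% fell. These shares are the background for each list below as well. The median log2 fold change was 0.13 beside 0.0077 for all genes. None of the 6 ligands, 5 receptors and coreceptors, or 4 secreted antagonists other than the 7 genes passed in either direction, although 3 of the ligands and 1 of the antagonists had an unadjusted p under 0.05, as did 34.5% of all genes. For the type I receptor *Acvr1b* the log2 fold change was 0.047 and for the ligand *Gdf3* -0.0090. Among 3 proprotein convertases, the enzymes that can cleave the Nodal precursor, *Furin* rose by 1.21 ± 0.22 (edgeR adjusted p = 0.0026), from 7.982 to 16.78 CPM in 2i and from 9.488 to 24.48 CPM with vitC.

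Among 8 SMADs and nuclear partners, *Crebbp* (0.84, adjusted p = 0.024, edgeR) and *Ep300* (0.65, 0.041), which encode histone acetyltransferases, rose. Their log2 ratios were 0.31 and 0.19 in 2i and 1.41 and 1.06 with vitC, and after a correction for GC content and length their changes were 0.48 and 0.27 and did not pass (edgeR adjusted p = 0.12 and 0.33). The receptor SMAD genes themselves did not pass, with 0.075 for *Smad2* and 0.19 for *Smad3*. Among 12 intracellular inhibitors *Ski* (1.21, adjusted p = 0.0014, edgeR), *Trim33* (0.57, 0.018), and *Tgif1* (0.51, 0.025) rose and none fell. *Ski* encodes a relative of SnoN, the product of *Skil*, and *Tgif1* a corepressor of SMAD2. *Skil* itself, at -0.23, had the opposite sign.

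The 10 other target genes had a median log2 fold change of -0.94, and of them 2 rose and 5 fell. *Eomes* (-1.35, adjusted p = 0.037, edgeR) and *T* (-1.125, 0.0087), transcription factors of the primitive streak, fell, as did *Wnt3* (-0.95, 0.022) and *Ccn2* (-0.81, 0.019), which are named after their values were seen. *Gsc*, a homeobox gene of the organizer, rose by 2.87 ± 0.62 (edgeR adjusted p = 0.0076), though from 7 and 4 counts at 4 hr to 28 and 16 counts at 24 hr. Both 4 hr libraries were below 1 CPM of *Gsc*, so it passed the filter only through later libraries, in which it was higher. Its call is therefore no support for a rise, and it was not tested under the filter of 1 CPM in all 8 libraries. The streak markers as a list summed to 12.01 to 24.65 CPM, with at least 1 of 6 at 0 in 6 of the 8 libraries.

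Between 16 and 32 hr 1 of the 46 other pathway genes rose and 0 fell in edgeR's test, where 0.335% of all genes rose and 0.248% fell. Of the 46, 10 had an unadjusted p under 0.05 (14.3% of all genes did), and the median log2 fold change was -0.060 beside -0.0016 for all genes. The convertase genes *Pcsk5* and *Pcsk6* had log2 fold changes of 2.02 and 0.71 (edgeR adjusted p = 0.12 and 0.10). The type I receptor gene *Acvr1b* had 0.23 (0.545, edgeR) and *Smad3* 0.59 (0.17). Other genes of the lists were lower, with -0.76 for the antagonist gene *Fst* (edgeR adjusted p = 0.13) and -0.77 for *Wnt3* (0.22). The ligand genes *Tgfb2* and *Tgfb3* had -0.71 and -0.95 (edgeR adjusted p = 0.26 and 0.585). None of these genes passed, and they are named after their values were seen. With vitC 0 of the 46 genes passed edgeR's test, where 0.107% of all genes were higher and 0.0603% lower. In DESeq2, which called more of all genes too, 2 of the 46 passed. An unadjusted p under 0.05 in edgeR was found for 11 of the 46 (13.8% of all genes), and the median of the 46 was -0.027 beside -0.015 for all genes.

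**Figure D4:**
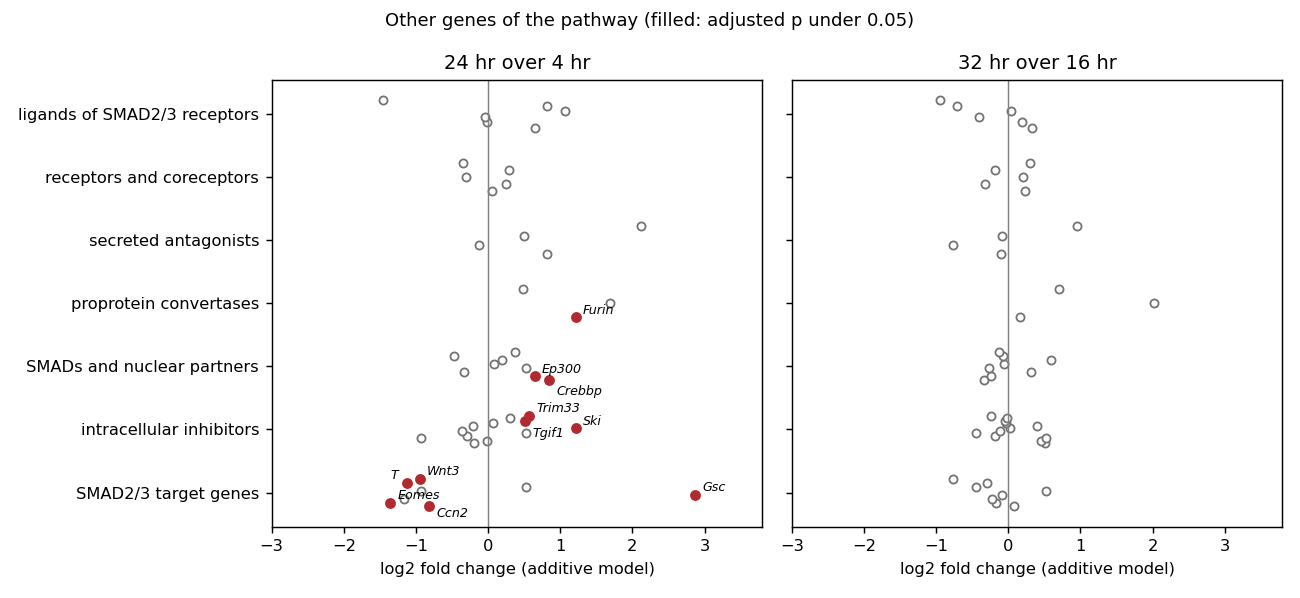
Log2 fold change in the additive model (horizontal axis) of 44 of the 46 other pathway genes, by list (vertical axis), for 24 hr over 4 hr and for 32 hr over 16 hr, with 1 point per gene, filled and named where the adjusted p is under 0.05. At 24 hr over 4 hr 7 of the genes plotted rose and 4 fell, and at 32 hr over 16 hr 0 of them passed.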

How the data were processed

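Per the labels, total RNA of E14 ESCs was depleted of ribosomal RNA, made into TruSeq libraries, and read as 50-base single ends. The authors deposited raw counts per Ensembl gene, without normalization. The submitters' processing notes name GSNAP, HTSeq, and the builds NCBIM37 and mm9; the annotation release and the strand setting are not given in the sources used here. Symbols, lengths, and sequences came from GENCODE M21, which held 32604 of the 37263 identifiers. Groups came from the labels and lanes from the deposited files' names.

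The 14931 genes that reached 1 CPM in 2 or more libraries were tested with edgeR 4.0.16 (TMM, quasi-likelihood test, Benjamini-Hochberg, threshold 0.05) in R 4.3.3, as log2 fold changes, after the scripts were tested on simulated data. Ratios of single libraries are differences of log2 CPM with a prior count of 2. Their 95% intervals (exact conditional binomial for ratios, exact Poisson for CPM) use no prior count. They and the floors cover counting error alone: without molecular identifiers, reads need not stand for separate molecules. No pair of libraries was identical.

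The 7 genes and the lists were chosen with earlier results of these data known. Named besides the 7 are, of each pathway list, at most the 3 largest rises and 3 largest falls past the threshold, and the 5 genes most like the mean profile. Genes of the lists that did not pass, such as *Acvr1b*, *Gdf3*, *Smad2*, and *Smad3*, and single cell type markers are named outside this rule, with their values known. The results were recomputed with DESeq2 1.42.0, other scalings, filters, thinning to the smallest total, a correction for GC content and length, other models, and the omission of each time point. Some results for other pathway genes are not reported here.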

Additional observations from a re-analysis of the deposited data

Results flagged for a closer look

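*Tdgf1*, the gene for the coreceptor Cripto, moved in opposite directions in the treatments between 4 and 24 hr, with a log2 ratio of 0.7167 in 2i (0.64 to 0.80) and -0.2185 with vitC (-0.33 to -0.11). Each value compares 1 library with 1 other, and the difference between the treatments was not tested. It rests on the 4 hr pair, in which the level was 141.3 CPM in 2i and 207.4 CPM with vitC.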

How the results depend on the processing

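Between 24 and 4 hr, 3 of the 7 genes passed under the other settings, but 1 (*Smad7*) did without a treatment term, where the count over all genes was 1891 in place of 3061. Between 32 and 16 hr 1 other pathway gene passed, and 3 did without the filter on low counts, while over all genes the count of 87 was 239 with DESeq2, 589 without the filter, 11 without a treatment term, and 54 without the 24 hr libraries. For vitC 0 of the 7 genes passed, 2 with DESeq2, 3 without the filter, 1 without the *Lars2* features, 1 after thinning, and 2 without the 4 hr libraries. Of the other pathway genes 0 passed, and 2, 4, 1, 1, and 2 under the same settings. Over all genes the 25 for vitC became 299, 690, 60, 119, and 381 under them, 13 when corrected for GC content and length, 13, 11, and 0 without the 16, 24, and 32 hr libraries, and 0 without the time block. Genes with a like course were 5, of which 1 was shared with the rank correlation. The number higher at 32 hr than at 16 hr in both treatments was 4, and 3 when corrected in this way. The sum of *Lefty1* and *Lefty2*, chosen after seeing the data, was called as *Lefty1* was (0.61, adjusted p = 0.038 at 24 hr over 4 hr, and -0.71, adjusted p = 0.051 for vitC, edgeR). The calls of *Crebbp* and *Ep300* were lost under 3 settings each, those of *Eomes* (adjusted p up to 0.20, edgeR) and *Trim33* (0.063) under 2, and that of *Ccn2* (0.074) under 1. No value changed its sign past the threshold. The cause was not tested. No paired analysis by replicate number was possible because the labels give none, and the test of vitC pairs libraries by time. Depth limits *Acvr2b* and *Lefty2* in the smallest vitC libraries.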

Other observations

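Markers of other cells were low or moved with time beside these genes. The 8 primitive endoderm markers summed to between 12.25 and 33.5 CPM and the 6 trophoblast markers to between 17.83 and 32.74 CPM, and the 5 neural progenitor markers, of which 4 were found, to between 136.3 and 273.4 CPM. No more than 2 of these 4 neural markers reached 1 CPM in any library, and they went different ways. *Nes* was at 0.657-fold its 4 hr level at 24 hr in 2i and at 0.592-fold with vitC. At 32 hr it was at 1.49-fold its 16 hr level in 2i and at 0.926-fold with vitC. *Pax3*, from low counts, was 17.2-fold higher at 32 hr than at 16 hr in 2i. With vitC it had 0 counts at 16 hr, so the size of its 37.8-fold ratio depends on the prior count of 2. It passed the filter only through the 32 hr libraries, in which it was higher. The 6 markers of formative and primed epiblast cells summed to 314.8 and 350.3 CPM at 4 hr and to between 80.74 and 118.9 CPM later, with *Pou3f1* at 0 counts in all 8 libraries. Of the 4 that passed the filter, *Dnmt3b* fell and *Sox3* rose from 4 to 24 hr (log2 fold change -2.08 and 1.503, edgeR adjusted p = 9.0e-06 and 0.020), and the other 2 did not pass the test.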
